A study of Mus musculus with 6 samples.

Results

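Fc receptors are the proteins through which cells of the immune system bind the constant (Fc) part of antibodies. Here 7 genes of this family were followed among the 43346 genes of the count table: Fcgr1, Fcgr3 and Fcgr4, which encode activating receptors for immunoglobulin G (IgG), Fcer1g, the signalling chain they share, Fcgr2b, the inhibitory IgG receptor, Fcgrt, the neonatal receptor, and Fcrls, an Fc receptor-like protein. They were taken by gene name, and the symbols were found once each. The family was chosen by its KO against WT fold changes, since Fcgr2b and Fcrls were already known to be among the genes that differed between the genotypes in the mice described here. The genotype values of all 7 are therefore a description. Whether a gene passed the threshold of the fit over all genes is counted. No p is given for it, and nothing is read from the count. The choice did not use the comparison of females with males, which was tested. The choice did rest on a fit with sex in the model, so the sex results are not fully separate from it.

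The tissue was cerebellum from 6 mice aged 15 months, 3 homozygous for the loss of Tmem106b (Tmem106b-/-, KO) and 3 wild-type mice (WT). The TMEM106B protein spans the membrane of lysosomes and late endosomes, and the study asked what its loss does to the aged cerebellum. Each genotype gave 1 female (replicate 1) and 2 males (replicates 2 and 3), with 1 RNA library per mouse and an RNA integrity number of 10 in every sample. How the allele was made, the strain background and whether mice shared a litter are not stated in the labels. The sample titles carry a code that the labels do not explain, 1 value of it shared by KO replicates 1 and 2 and WT replicate 1 and a value of its own in each other mouse, so that what the code marks cannot be told apart from the mice. The loss was present in the whole animal, so no cell type is set apart by the design, and the whole-tissue RNA mixes neurons, glia, vessels and meningeal cells. In such RNA, fewer cells of a type and less RNA per cell cannot be told apart.

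Activating Fc receptors bind IgG on coated particles and signal through tyrosines of the common chain, which recruit the kinase SYK and start phagocytosis and cytokine release. Fcgr2b carries an inhibitory tyrosine motif that recruits the phosphatase SHIP1 and dampens the same signal, so that the balance of both kinds sets how strongly a cell answers immune complexes. In brain these receptors are known from microglia and the macrophages of the borders, Fcrls is known as a mouse microglial gene, and Fcgrt is known from endothelium, where it recycles IgG and albumin.

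Library totals ran from 25245778 to 28584165 counts in KO and from 29658618 to 31135185 in WT. Tmem106b was at 69.7, 67.9 and 62.7 CPM (counts scaled to the effective library size) in the KO mice, against 230.5, 267 and 238 CPM in the WT mice. The KO mean was 27.2% of the WT mean, with a log2 fold change of -1.88, a standard error (SE) of 0.08 and an adjusted p of 1.37e-04 (edgeR quasi-likelihood, Benjamini-Hochberg). Which part of the transcript the remaining KO reads cover is unknown. Across the 16934 genes tested, 48 (0.283%) passed an adjusted p of 0.05, and the median over all log2 fold changes was 0.000294.

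Fcgr2b, Fcgr3, Fcgr4 and Fcer1g lie within 1 stretch of mouse chromosome 1, at chr1:170958617-170976547, chr1:171051174-171064935, chr1:171018920-171029761 and chr1:171229572-171234365 of the mm10 build. Fcrls (chr3:87250758-87263738) and Fcgr1 (chr3:96282909-96293969) lie on chromosome 3 and Fcgrt (chr7:45092993-45103822) on chromosome 7. All are annotated as protein-coding, and all but Fcgr4 are on the minus strand. The motifs through which the common chain activates and Fcgr2b inhibits are encoded by short stretches, shown for that contrast and printed 5′ to 3′ from the GENCODE transcripts of GRCm38 (mm10) with the tyrosine codons of the motifs in capitals. The common chain has a pair of such codons, at residues 65 and 76 (exons within chr1:171229880-171230081, minus strand), and Fcgr2b has 1, at residue 319 (exons within chr1:170961053-170961201, minus strand).
Fcer1g: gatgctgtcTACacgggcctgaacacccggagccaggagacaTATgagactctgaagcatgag
Fcgr2b: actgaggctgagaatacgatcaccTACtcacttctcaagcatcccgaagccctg

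The activating and the inhibitory receptor are also close copies of each other outside the cell, which bears on how their reads could be counted apart. The longest stretch of coding sequence that Fcgr2b and Fcgr3 share without a mismatch has 129 bases, lies in Fcgr2b within chr1:170966674-170968081 and in Fcgr3 within chr1:171054167-171057792 on the minus strand, and crosses an intron in both genes.
Fcgr2b and Fcgr3: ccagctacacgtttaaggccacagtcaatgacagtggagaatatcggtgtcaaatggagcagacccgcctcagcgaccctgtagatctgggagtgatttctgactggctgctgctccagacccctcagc
The longest run shared by Fcgr3 and Fcgr4 was 14 bases and that shared by Fcgr2b and Fcgr4 was 13. Of all 50-base windows in the transcripts of Fcgr3, 9.58% also occurred in Fcgr2b and in no other gene. For Fcgr2b, 4.38% occurred in another gene, and for the other 5 genes the share was 0%. The read length, and how reads that match both genes were assigned, are not known from the labels or headers.

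Among the activating receptors, all KO values of Fcgr3 were above all WT values, while those of Fcgr1 and Fcgr4 overlapped. Fcgr3, a low-affinity activating receptor, was at 12.9, 11.1 and 12.2 CPM in the KO mice, against 9.35, 6.62 and 8.22 CPM in the WT mice. Every KO mouse was above every WT mouse, and in both genotypes the first male had the lowest value. The means were 12.1 ± 0.935 CPM in KO and 8.06 ± 1.37 CPM in WT (SD, n = 3 each), a log2 fold change of 0.59 (SE 0.13).

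Fcgr1, the high-affinity activating receptor, was at 4.72, 3.33 and 4.67 CPM in the KO mice, against 4.62, 3.62 and 4.75 CPM in the WT mice. The groups overlapped over nearly their whole range, again with the first male lowest in each. Its means were 4.24 ± 0.788 CPM in KO and 4.33 ± 0.618 CPM in WT (SD, n = 3 each), and its log2 fold change was -0.03 (SE 0.19). Fcgr4, another activating receptor, was close to the limit of these libraries, with 12, 10 and 10 counts in the KO mice, against 8, 4 and 11 counts in the WT mice. These counts overlapped, and at 0.392 ± 0.0696 CPM in KO and 0.256 ± 0.120 CPM in WT (SD, n = 3 each) the log2 fold change of 0.60 had an SE of 0.45.

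Fcer1g, the common chain that holds the activating receptors at the cell surface, was at 7.16, 5.42 and 7.78 CPM in the KO mice, against 4.86, 3.46 and 4.25 CPM in the WT mice. Each KO value was above each WT value, and KO replicate 2 came closest to WT. The means were 6.79 ± 1.22 CPM in KO and 4.19 ± 0.700 CPM in WT (SD, n = 3 each), with a log2 fold change of 0.70 (SE 0.18). Fcer1g did not pass the threshold in any of the 15 alternatives tried.

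The inhibitory receptor Fcgr2b differed more than any activating one in estimate. It was at 8.10, 6.01 and 4.96 CPM in the KO mice, against 2.76, 2.17 and 2.76 CPM in the WT mice. The lowest KO mouse was well above the highest WT mouse, and the KO mice were more spread out than the WT mice, with the KO female highest. The counts behind these values were 206, 175 and 137 in the KO mice, against 83, 66 and 82 in the WT mice. The means were 6.36 ± 1.60 CPM in KO and 2.57 ± 0.339 CPM in WT (SD, n = 3 each), a 2.44-fold difference (log2 1.29, SE 0.18).

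Fcrls, a secreted member of the Fc receptor-like proteins, had the largest fold change of the 7 genes. It was at 13.1, 7.62 and 9.48 CPM in the KO mice, against 6.22, 2.64 and 2.70 CPM in the WT mice. The groups did not overlap, although the WT female, far above both WT males, came near the lowest KO male. The means were 10.1 ± 2.76 CPM in KO and 3.85 ± 2.05 CPM in WT (SD, n = 3 each), a 2.75-fold difference (log2 1.46, SE 0.18, with sex in the model).

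Fcgrt, which encodes the heavy chain of the neonatal receptor, was at 14.3, 20.7 and 22.1 CPM in the KO mice, against 18.7, 21.1 and 20.2 CPM in the WT mice. The KO female was lowest, and the other mice of both genotypes lay close together. The means were 19.0 ± 4.17 CPM in KO and 20.0 ± 1.24 CPM in WT (SD, n = 3 each), and the log2 fold change was -0.09 (SE 0.12). The plot of the 7 genes by mouse shows these values side by side.

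**Figure D1:**
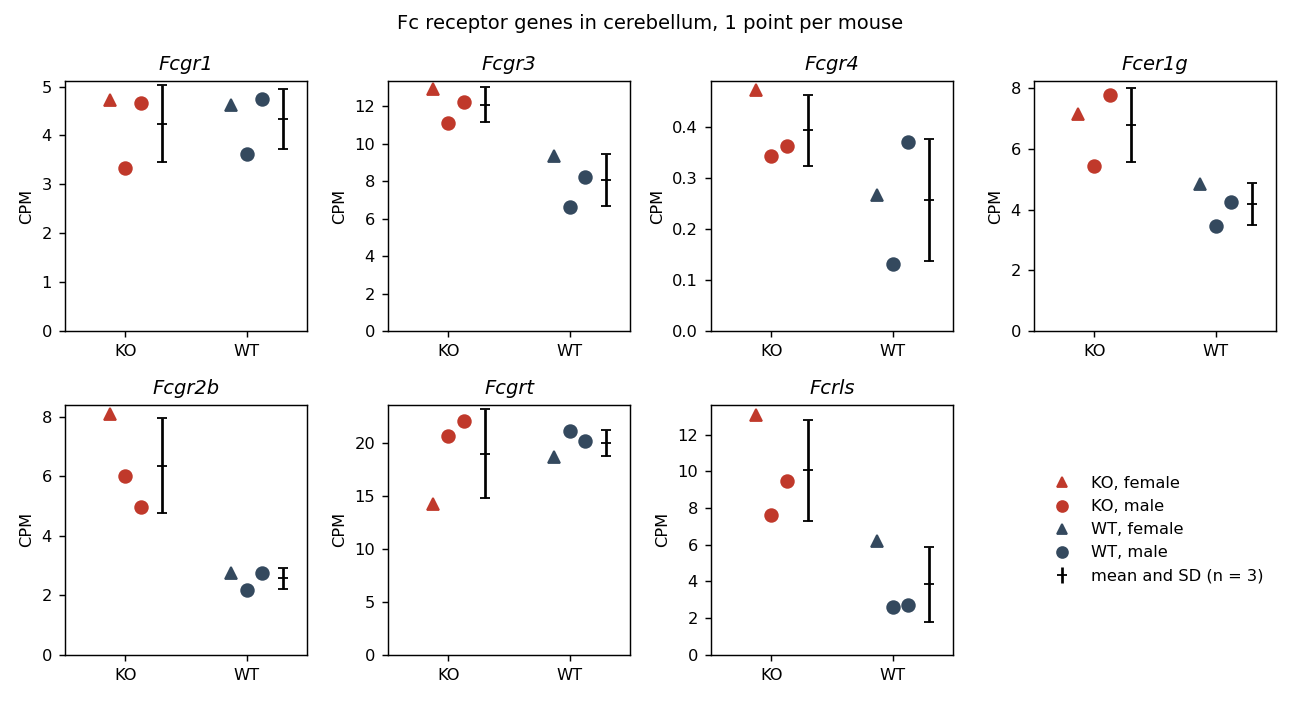
Normalised level (CPM, linear axis from 0) of the 7 Fc receptor genes in each mouse, KO at the left and WT at the right of every panel, with females as triangles, males as circles, and the mean and SD of 3 mice as bars. The KO points of Fcgr2b, Fcgr3, Fcer1g and Fcrls all lie above the WT points, and those of Fcgr1, Fcgr4 and Fcgrt overlap them.

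In the fit over all genes, 2 of the 7 genes passed an adjusted p of 0.05, Fcgr2b and Fcrls, both higher in KO, where 0.136% of all genes tested were called higher. In 4 of the 7, Fcgr2b, Fcgr3, Fcer1g and Fcrls, all KO mice were above all WT mice, which held for 7.77% of all genes. All 7 genes passed the filter on low counts. Their median log2 fold change was 0.60, beside 0.000294 over all genes, and since the family was chosen with this contrast known, nothing is read from these figures. limma-voom called the same 2 genes, where it called 0.124% of all genes higher.

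The call of Fcgr2b was lost without KO replicate 1, KO replicate 2, WT replicate 1, WT replicate 2 or WT replicate 3, with log2 fold changes of 1.14 to 1.43 over those fits and the fit without KO replicate 3, and in the males alone (1.14). That of Fcrls was lost without WT replicate 2 (log2 fold change 1.38) or WT replicate 3 (1.40), and without the sex term (1.38). Fcgr3 passed the threshold in DESeq2, without a filter on low counts and with GC and length offsets, where 0.537%, 0.294% and 0.596% of all genes were called higher. The plot of estimates with each library left out shows the fold changes behind these calls. Fcgr1 and Fcgrt lay on either side of 0, and the estimate of Fcgr4 ran from 0.30 without WT replicate 2 to 1.09 without WT replicate 3.

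**Figure D2:**
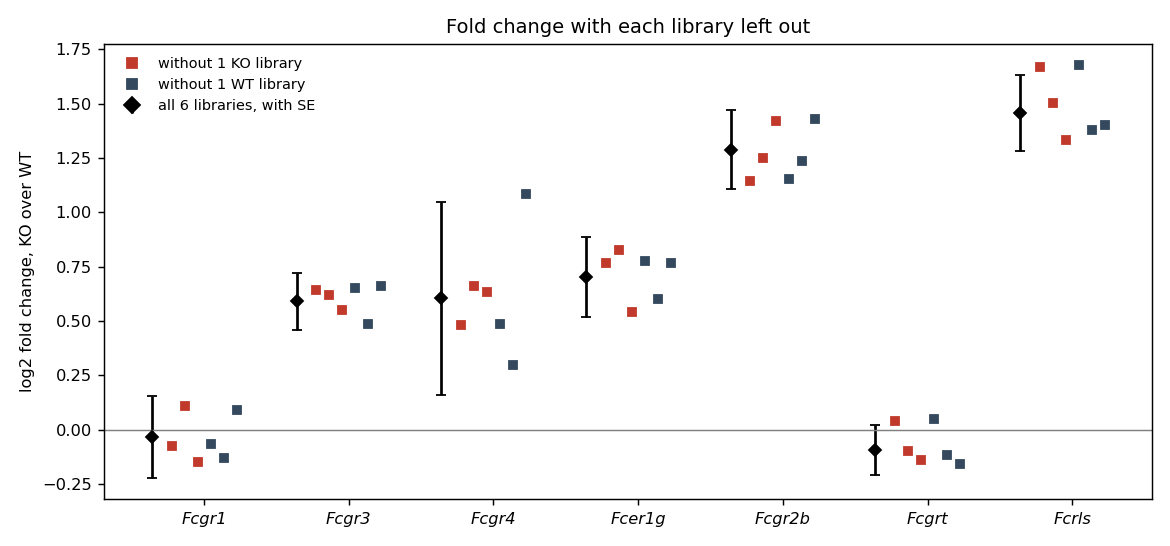
Log2 fold change, KO over WT, of each Fc receptor gene from all 6 libraries (black, with SE) and with 1 KO library (red) or 1 WT library (blue) left out. Fcgr2b stays between 1.14 and 1.43 and Fcrls between 1.33 and 1.68, and the estimates of Fcgr1 and Fcgrt fall on both sides of 0.

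When the counts of Fcgr2b, Fcgr3 and Fcgr4 were summed, so that a read moved between these genes would not change the total, the sum was 21.5, 17.4 and 17.6 CPM in the KO mice, against 12.4, 8.93 and 11.4 CPM in the WT mice. Reads left out for matching more than 1 gene would be missing from this sum too. The sums did not overlap, and the log2 fold change of the sum was 0.79 (SE 0.12).

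Set against gene length, the order of the receptors was nearly the same in all mice. In CPM per kilobase of the annotated gene, Fcgrt was highest and Fcgr4 lowest in each of the 6 libraries. Fcgrt ranged from 8.22 to 12.7 CPM per kilobase in KO and from 10.8 to 12.2 in WT. The common chain Fcer1g came next in all mice but KO replicate 2, where Fcgr3 was above it, at 6.21 to 8.90 CPM per kilobase in KO and 3.96 to 5.56 in WT. Its range overlapped that of Fcgrt in KO and not in WT.

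Fcgr3 followed, at 6.39 to 7.46 CPM per kilobase in KO and 3.81 to 5.38 in WT, with ranges that overlapped those of Fcer1g in both genotypes. The place of Fcrls differed between the genotypes. At 3.27 to 5.60 CPM per kilobase in KO, Fcrls was above Fcgr1 (1.29 to 1.82) in every KO mouse. At 1.13 to 2.66 CPM per kilobase in WT, it was above Fcgr1 (1.40 to 1.84) in WT replicate 1 alone. Fcgr2b was below Fcgr1 in all mice, at 0.856 to 1.40 CPM per kilobase in KO and 0.375 to 0.477 in WT. By this measure Fcgr2b was also below the common chain and Fcgr3 in all mice of both genotypes. These places rest on the annotated gene lengths, 5790 bases for Fcgr2b and 2589 for Fcgr1. In plain CPM, Fcgr2b was above Fcgr1 in every KO mouse and below it in every WT mouse. In plain CPM it was also above Fcer1g in KO replicates 1 and 2, and below Fcgr3 in all mice. The lengths of the transcripts expressed were not measured.

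The balance of the inhibitory over the activating receptors was read within each library as a ratio of counts, which does not depend on scaling. The ratio of Fcgr2b to Fcgr3 counts was 0.626, 0.542 and 0.405 in the KO mice, against 0.295, 0.328 and 0.336 in the WT mice. The WT mice were close together and all below the KO mice, whose lowest value was that of replicate 3. The means were 0.524 ± 0.111 in KO and 0.320 ± 0.0216 in WT (SD, n = 3 each), a log2 difference of 0.69. This difference ran from 0.55 to 0.87 with each library left out and was 0.50 in the males alone.

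The ratio of Fcgr2b to Fcgr1 was 1.72, 1.80 and 1.06 in the KO mice, against 0.597, 0.600 and 0.582 in the WT mice. In WT this ratio hardly varied, and KO replicate 3 again lay nearest to WT. The ratio of the activating receptors Fcgr3 and Fcgr1 was 2.74, 3.33 and 2.62 in the KO mice, against 2.02, 1.83 and 1.73 in the WT mice. All KO mice were above WT here too (log2 difference 0.63), so a ratio to Fcgr1 was higher in KO without the inhibitory receptor in it. The ratio of Fcgr3 to its signalling chain Fcer1g was 1.81, 2.04 and 1.57 in the KO mice, against 1.92, 1.91 and 1.94 in the WT mice, so that here the KO mice lay on both sides of WT. The ratio of Fcrls to Fcgr2b was 1.61, 1.27 and 1.91 in the KO mice, against 2.25, 1.21 and 0.976 in the WT mice, and these ranges overlapped too.

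Microglial markers moved with these genes. The summed level of 18 markers was 368 to 421 CPM in KO, against 254 to 308 CPM in WT. Of the 18, 1 rose and none fell in edgeR at a Benjamini-Hochberg adjusted p of 0.05, 10 were higher at an unadjusted p of 0.05, DESeq2 called 6 and limma-voom 0, and the median log2 fold change was 0.32. Over all genes the shares higher were 0.136% in edgeR, 4.71% at the unadjusted p, 0.537% in DESeq2 and 0.124% in limma-voom. The edgeR count was 0 without KO replicate 2, WT replicate 2 or WT replicate 3, 3 when KO replicate 3 was left out, and 4 when KO replicate 1 or WT replicate 1 was. Within the list, Tmem119, a membrane protein of resident microglia, was at 7.31 CPM in KO and 7.31 CPM in WT. The part of these markers in the receptor values was not tested, and the receptors were instead set against them library by library.

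The mean log2 level of the 18 markers, relative to the WT mean, was 0.22, 0.29 and 0.44 in the KO mice, against 0.09, -0.15 and 0.06 in the WT mice. Fcgr2b relative to it was at log2 values of 1.43, 0.93 and 0.50 in the KO mice, against 0.02, -0.08 and 0.06 in the WT mice. All KO mice remained above all WT mice on this scale, the KO female most. Fcrls relative to the markers was at 1.65, 0.80 and 0.97 in the KO mice, against 0.71, -0.27 and -0.44 in the WT mice. Here the KO males lay only slightly above the WT female.

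Fcgr3 relative to the markers was at 0.48, 0.18 and 0.17 in the KO mice, against 0.13, -0.12 and -0.01 in the WT mice, a narrow gap. Fcer1g was at 0.56, 0.09 and 0.46 in the KO mice, against 0.13, -0.11 and -0.02 in the WT mice. It overlapped WT through KO replicate 2 alone, slightly below WT replicate 1. Its KO mean of 0.37 was above the 0.28 of Fcgr3. Fcgr1 at -0.08, -0.65 and -0.32 in KO overlapped WT, as did Fcgr4. Fcgrt was at -0.70, -0.24 and -0.29 in the KO mice, against -0.19, 0.23 and -0.04 in the WT mice, with all KO mice lower. On this scale all KO mice were above all WT mice for 0.644% of all genes and below them for 46.8%, since the marker level itself was higher in KO, so that the position of Fcgrt was a common one. Of the 4 genes whose KO mice were all above WT before this scaling, Fcgr2b, Fcgr3 and Fcrls remained so. Fcer1g did not, because of KO replicate 2, and the gaps of Fcgr3 and Fcer1g to WT were small either way.

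**Figure D3:**
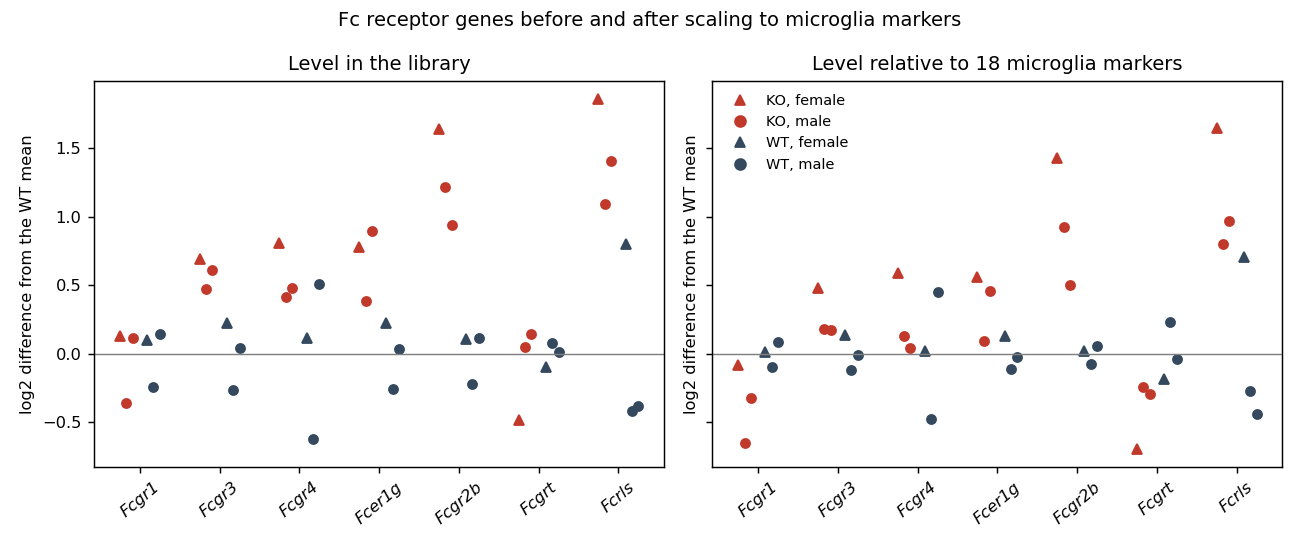
Log2 difference of each Fc receptor gene from its WT mean, per mouse, in the library as a whole (left) and relative to the mean of 18 microglial markers (right), with KO in red, WT in blue, females as triangles and males as circles. After scaling, the KO points of Fcgr2b (0.50 to 1.43), Fcrls (0.80 to 1.65) and Fcgr3 (0.17 to 0.48) are still above all WT points, and those of Fcer1g, Fcgr1 and Fcgr4 overlap them.

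Markers of other cells that carry Fc receptors were mostly scarce. Those of border-associated macrophages summed to 7.93 to 9.64 CPM in KO, against 5.99 to 7.58 CPM in WT, with 0 of 8 called by edgeR, DESeq2 or limma-voom, 0 at an unadjusted p of 0.05 and a median log2 fold change of 0.32. Those of monocytes and neutrophils summed to 3.47 to 7.28 CPM in KO, against 2.21 to 3.79 CPM in WT. Of the 5 tested markers, 2 were higher in KO at an unadjusted p of 0.05, as were 4.71% of all genes. The 3 tools called 0 of these markers, and their median log2 fold change was 0.93. Among these, the neutrophil gene S100a9 had 51, 22 and 13 counts in the KO mice, against 24, 10 and 12 counts in the WT mice, highest in both females.

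B cells also carry Fcgr2b. Cd79a, a chain of the B cell receptor, had 6, 11 and 9 counts in the KO mice, against 11, 10 and 15 counts in the WT mice, low values that overlapped. The B and plasma cell list summed to 132 to 170 CPM in KO, against 117 to 171 CPM in WT, most of it Xbp1, which many secretory cells express, and 0 of 3 tested genes passed in any of the 3 tools or at an unadjusted p of 0.05 (median log2 fold change -0.08). The T and NK cell list (3.30 to 4.27 CPM in KO, 3.13 to 3.33 CPM in WT) had 1 tested gene, which did not pass, and of the mast cell list none reached the filter, with Fcer1a at 0 in all libraries. The part of border macrophages, monocytes and neutrophils in the values of Fcgr2b, Fcgr3, Fcer1g and Fcrls was not tested.

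Sex was not the comparison by which the genes were chosen, but it was in the model behind that choice. The genotype call of Fcrls was lost without the sex term, so its sex result is not fully separate from the choice. With 2 females and 4 males, edgeR's quasi-likelihood test on the sex term called 0 of the 7 genes at a Benjamini-Hochberg adjusted p of 0.05, where it called 6 of all genes (0.0354%). At an unadjusted p of 0.05, which 6.68% of all genes passed, there were 2, Fcrls and Fcgrt. DESeq2 called 1 of the 7, Fcrls, where it called 0.337% of all genes, and limma-voom 0.

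Fcrls averaged 9.64 CPM in females and 5.61 CPM in males. Within each genotype the female was above both males. Its log2 difference, female over male with genotype in the model, was 0.90 (SE 0.18, edgeR adjusted p 0.455, unadjusted p 8.6e-04). Over 13 alternatives the difference ran from 0.61 to 1.18 and the adjusted p from 0.0231 to 0.820. It passed the threshold in 3 of them, DESeq2 (0.0231), edgeR without a filter on low counts (0.0253, where 0.155% of all genes were called) and edgeR without KO replicate 3 (0.0324, where 0.319% were called), and the adjusted p was 0.804 without KO replicate 2, 0.820 without WT replicate 2 and 0.712 without WT replicate 3. Fcgrt averaged 16.5 CPM in females and 21.0 CPM in males, a log2 difference of -0.36 (SE 0.13, edgeR adjusted p 0.720). The female was below both males in each genotype. Over 13 alternatives its difference ran from -0.58 without WT replicate 1 to -0.18 without KO replicate 1, fits that hold 1 female each and take the spread from the other mice, and it passed the threshold in none (adjusted p 0.0662 to 0.982).

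The other 5 genes had log2 differences between 0.19 for Fcgr1 and 0.38 for Fcgr2b, all higher in females, with edgeR adjusted p-values of 0.720 to 0.876. Of the markers of other cells described next, edgeR called 0 by sex in each list at an adjusted p of 0.05. At an unadjusted p of 0.05, 2 of 5 monocyte and neutrophil markers and 1 of 18 microglial markers were higher in females. At that p, 1 of 8 endothelial markers was lower and 0 of 8 choroid plexus markers differed, beside 6.68% of all genes in either direction. The monocyte and neutrophil list summed to 3.79 to 7.28 CPM in females and 2.21 to 3.51 CPM in males, with a median log2 difference of 0.82. The endothelial list summed to 295 to 321 CPM in females and 290.5 to 346 CPM in males (median -0.14, with 7 of 8 markers below 0), and the choroid plexus list to 82.8 to 1636 CPM in females and 1622 to 5069 CPM in males (median -1.97, with 8 of 8 below 0). The microglial list summed to 308 to 372 CPM in females and 254 to 421 CPM in males (median 0.02). The part of these cells in the sex differences of Fcrls and Fcgrt was not tested.

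The regions before the RefSeq starts were searched on both strands for sequence motifs of factors that are known to act in macrophages, over 250 bases each (GRCm38.p6). GAGGAA, the core bound by the myeloid factor PU.1, was found in Fcgr1, Fcgr3, Fcgr4 and Fcrls and not in Fcgr2b, Fcer1g or Fcgrt, and 23.3% of 32851 promoters held it. The joint element of ETS and IRF factors, GGAA and GAAA with 2 free bases between them, was found in Fcgr2b alone, 35 bases before the start, and in 2.3% of all promoters. Both motifs hold GGAA, and the match in Fcgr2b is not one of GAGGAA. TTCNNNGAA, a STAT element, was found in Fcgr1 alone and in 7.02% of all promoters. CACGTG, the core of the element bound by lysosomal gene regulators of the TFEB kind, was found in 0 of the 7 and in 6.02% of all promoters.

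The windows of the 2 genes that passed the threshold, and of Fcgr1, whose groups overlapped, are shown with the GAGGAA match (Fcrls, Fcgr1) or the ETS-IRF match (Fcgr2b) on either strand in capitals. They lie at chr3:87263525-87263774 (Fcrls), chr1:170976072-170976321 (Fcgr2b) and chr3:96293970-96294219 (Fcgr1), all on the minus strand, and are printed in the direction of transcription. RefSeq and the gene bounds of the count table place the starts differently: all 250 bases of the Fcgr2b window and 214 of the Fcrls window lie inside the gene as counted, and 0 of the Fcgr1 window.
Fcrls: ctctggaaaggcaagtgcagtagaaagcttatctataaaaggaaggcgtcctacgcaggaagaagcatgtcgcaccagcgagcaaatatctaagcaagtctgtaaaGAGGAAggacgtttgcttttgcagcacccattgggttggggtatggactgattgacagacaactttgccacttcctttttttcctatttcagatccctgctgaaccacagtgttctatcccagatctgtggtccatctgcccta
Fcgr2b: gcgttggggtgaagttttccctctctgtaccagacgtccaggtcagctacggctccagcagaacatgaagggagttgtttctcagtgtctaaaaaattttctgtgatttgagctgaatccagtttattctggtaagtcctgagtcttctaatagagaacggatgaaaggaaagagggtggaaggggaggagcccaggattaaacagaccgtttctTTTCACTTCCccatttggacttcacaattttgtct
Fcgr1: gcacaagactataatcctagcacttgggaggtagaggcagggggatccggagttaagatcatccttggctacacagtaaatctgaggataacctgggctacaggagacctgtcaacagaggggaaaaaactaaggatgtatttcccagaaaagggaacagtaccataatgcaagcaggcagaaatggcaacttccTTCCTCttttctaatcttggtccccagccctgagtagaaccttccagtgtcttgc
The matches stand at 144, 35 and 55 bases before the start in Fcrls, Fcgr2b and Fcgr1. They are matches of letters in these windows and were not set against binding data.

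Of the ligands of the receptors, the immunoglobulins, the IgM heavy chain was detected at a level near that of the receptors, and the IgG chains had few or no counts. Of 13 listed genes 11 were in the table and 3 were tested, and Ighg1, Ighg3 and Ighe were at 0 in all libraries. Their summed level was 9.68, 7.79 and 9.48 CPM in the KO mice, against 7.88, 6.69 and 6.20 CPM in the WT mice, ranges that overlapped. Most of it was Ighm, the heavy chain of IgM, at 6.52 ± 1.37 CPM in KO and 4.77 ± 0.954 CPM in WT (SD, n = 3 each, edgeR adjusted p 0.363), which is not a ligand of the IgG receptors. Of the IgG chains themselves, Ighg2b had 4, 0 and 19 counts in the KO mice, against 3, 0 and 0 counts in the WT mice, and Ighg2c had 7, 4 and 5 counts in KO, against 4, 10 and 3 counts in WT. IgG protein that enters from blood leaves no transcript and was not measured.

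In the immunoglobulin list 0 genes passed in edgeR, DESeq2 or limma-voom (median log2 fold change 0.06). At an unadjusted p of 0.05 there was 1, Ighm, higher in KO, as were 4.71% of all genes. The pentraxins, innate proteins that Fc receptors also bind, had 1 tested member, Ptx3 (log2 fold change 0.38, SE 0.47), with Apcs and Crp at 0. The partner of the neonatal receptor, B2m, the light chain of the class I molecules too, was at 137 ± 9.28 CPM in KO and 121 ± 4.14 CPM in WT (SD, n = 3 each, log2 0.18, SE 0.07), with an unadjusted p of 0.0378 and an edgeR adjusted p of 0.519. Albumin, a cargo of the neonatal receptor, had at most 2 counts in a library.

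Other receptors of antibodies had few counts, apart from Trim21. Of 12 genes in this list 3 were tested, 0 passed in edgeR, DESeq2, limma-voom or at an unadjusted p of 0.05, and the median log2 fold change was -0.10. Trim21, the antibody receptor of the cytosol, was at 3.50 ± 0.175 CPM in KO and 3.82 ± 1.12 CPM in WT (SD, n = 3 each). The IgE receptor gene Fcer2a had a log2 fold change of -0.41 (SE 0.29) and Fcrlb one of -0.06 (SE 0.56). Of the other receptors known to signal through the common chain, Oscar was the 1 of 7 in the table that was tested, at a log2 fold change of -0.10 (SE 0.33) and 0 calls.

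Tyrobp, the adaptor that does for receptors such as Trem2 what Fcer1g does for Fc receptors, was at 17.6 ± 1.95 CPM in KO and 9.59 ± 1.67 CPM in WT (SD, n = 3 each). Every KO mouse was above every WT mouse, with a log2 fold change of 0.88 (SE 0.15), an adjusted p of 0.0663 in edgeR and 4.77e-05 in DESeq2. Of 15 alternatives, 10 put it past the threshold, and its adjusted p ranged between 4.77e-05 and 0.422. In this list of 5 adaptors, 2 were tested, edgeR and limma-voom called 0, DESeq2 called 1, and the median was 0.27. Tyrobp was the 1 higher in KO at an unadjusted p of 0.05, as were 4.71% of all genes. Cd79a, the other tested one, had a log2 fold change of -0.35 (SE 0.37).

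The list of genes that carry the activating signal onward had a median difference near 0 in the whole tissue. Of 31 kinases and adaptors downstream of the activating motif, 0 passed in edgeR with all 6 libraries or in limma-voom, DESeq2 called 1 and 4 were at an unadjusted p of 0.05, all higher in KO, which 4.71% of all genes were. These were Fgr, Blnk, Pik3r1 and Cblb, and the median log2 fold change of the list was 0.07. Pik3r1, the regulatory subunit of PI3 kinase, was at 204 ± 13.6 CPM in KO and 157 ± 5.28 CPM in WT (SD, n = 3 each), with an adjusted p of 0.101 in edgeR and 0.00500 in DESeq2. Pik3r1 also passed in edgeR without a filter on low counts, with GC and length offsets and without KO replicate 3. Grb2, an adaptor, and Fyn, a SRC family kinase, had log2 fold changes of -0.13 (SE 0.08) and -0.12 (SE 0.07). Syk was at 2.17 ± 0.828 CPM in KO and 2.06 ± 0.0237 CPM in WT (SD, n = 3 each, log2 0.03, SE 0.24). All are whole-tissue values, and signalling in the cells that carry the receptors was not measured.

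On the inhibitory side, Inpp5d, the gene of the phosphatase SHIP1 that Fcgr2b recruits, was at 7.08 ± 1.21 CPM in KO and 5.81 ± 0.293 CPM in WT (SD, n = 3 each, log2 0.28, SE 0.16, edgeR adjusted p 0.676). Of 6 tested genes in this list 0 passed in any of the 3 tools, with a median of 0.12. The phosphatase gene Ptpn6 alone was at an unadjusted p of 0.05, higher in KO, as were 4.71% of all genes. Ptpn11 and Inppl1 had log2 fold changes of 0.01 (SE 0.06) and -0.05 (SE 0.09). Of 24 genes of actin and the phagocytic cup 0 passed in the 3 tools, and the median was 0.03. At an unadjusted p of 0.05 Nckap1l was higher, as were 4.71% of all genes, and Myo10 was lower. Cdc42, Rac1 and Actr2, which drive actin assembly under the receptors, had log2 fold changes of 0.07 (SE 0.07), 0.04 (SE 0.06) and -0.01 (SE 0.07). The plot of genes by list sets these medians beside those of the markers and of the Fc receptor genes, whose own median carries the choice of the family.

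**Figure D4:**
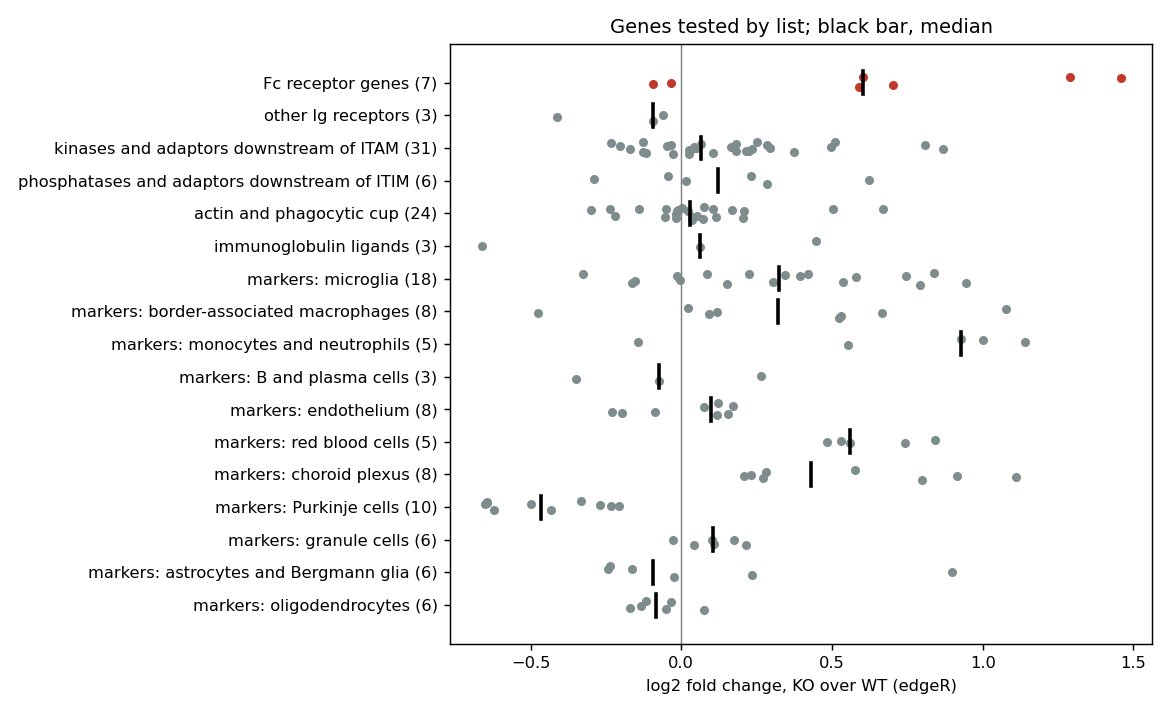
Log2 fold change, KO over WT, of each tested gene in the Fc receptor family (red) and in lists of partners, signalling genes and cell type markers (grey), with the number tested in brackets and the median as a black bar. The Fc receptor genes, chosen with this contrast known, run from -0.09 to 1.46 with a median of 0.60, and the list medians run from -0.47 for Purkinje cells to 0.93 for monocytes and neutrophils.

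Among the markers of the tissue itself, 4 of 10 Purkinje cell genes fell at an adjusted p of 0.05 in edgeR, 6 were called lower by DESeq2 and 3 by limma-voom, 10 were lower at an unadjusted p of 0.05, and edgeR called 0 without KO replicate 2, WT replicate 2 or WT replicate 3. Their median log2 fold change was -0.47, with a summed level of 7316 to 8415 CPM in KO, against 10933 to 11844 CPM in WT. Over all 16934 genes and in either direction, edgeR called 48 (0.283%), DESeq2 232 and limma-voom 43. The share of all genes lower at the unadjusted p is not given here. Endothelium, which carries Fcgrt, summed to 321 to 346 CPM in KO, against 290.5 to 345 CPM in WT, with 0 of 8 markers called by the 3 tools and 0 at an unadjusted p of 0.05 (median 0.10). Red blood cell genes (77.2 to 157 CPM in KO, 71.8 to 88.5 CPM in WT, median 0.56) had 0 of 5 called by edgeR and limma-voom, 1 by DESeq2 and 3 at an unadjusted p of 0.05. The DESeq2 and unadjusted counts were of genes higher in KO, as were 0.537% and 4.71% of all genes. Choroid plexus genes differed between libraries more than between genotypes (1622 to 5069 CPM in KO, 82.8 to 4707 CPM in WT, 0 of 8 called by the 3 tools and 0 at an unadjusted p of 0.05, median 0.43). Of 6 genes each for granule cells, astrocytes and Bergmann glia, and oligodendrocytes, edgeR called 0, 1 (Gfap, higher) and 0. DESeq2 called 0, 1 and 0, limma-voom called 0, 1 and 0, and the medians were 0.11, -0.09 and -0.08. At an unadjusted p of 0.05, 2 granule cell genes were higher, as were 4.71% of all genes. At that p Gfap was higher, Slc1a3 was lower (log2 fold change -0.24), and 0 oligodendrocyte genes passed. The part of blood and choroid plexus in the receptor values was not tested.

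The genes whose log2 level followed that of Fcer1g most closely over the 6 libraries, among 13231 genes, were Amt, Rgcc, Hrsp12, Sft2d1 and Cd14, with Pearson coefficients of 0.990 to 0.995. After the mean of each genotype was taken out, they were Pgap2, Fam20a, Atf5, Rgl1 and Mrps2 (0.991 to 0.993), none of them a gene of the first set. With so few libraries and so many genes searched, this is a description of these 6 mice.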

How the data were processed

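Raw read counts per gene for the 6 libraries (1 per mouse) were deposited by the authors in 1 table, with gene symbols, lengths and coordinates per the file headers. The aligner was STAR and the build mm10, per the submitters' processing notes. RNA came from a column kit, per the labels' protocols. What counted the reads, with which strand setting, read length and annotation, is not given in the sources used here, so reads of overlapping genes and of near copies could be split in ways that are not known.

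The tests used edgeR 4.0.16 in R 4.3.3: filterByExpr (minimum count 10, minimum total 15, 16934 of 43346 genes kept), TMM scaling, a model of sex and genotype (residual degrees of freedom 3), two-sided quasi-likelihood F tests and Benjamini-Hochberg adjustment over all genes kept, with a threshold of 0.05. Each SE was taken from the log2 fold change and its F statistic (size over the root of F). Levels relative to microglial markers are in log2 CPM, prior count 2. DESeq2 1.42.0 and limma-voom 3.58.1 were alternatives, as were RLE scaling, other filters, a threshold of 0.10, leaving out each library, the males alone and a model without sex. Offsets for GC content and length, and the ranges of the count ratio, were added after seeing the data. The steps were tested on simulated data.

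The Fc receptor genes and the 23 lists (215 of 221 entries found) were chosen with earlier results of these data known. Partners were named by list: those past the threshold, then up to 3 others with the highest CPM. Single genes outside that rule (S100a9, Tmem119, Ighg2b, Ighg2c, Syk and those at an unadjusted p of 0.05) were picked after their values were seen. Depth was 25245778 to 31135185 counts, and the biological coefficient of variation 11.2%. No library was a copy of another of its genotype (chi-square over its degrees of freedom 7.44 to 30.6). The p-values set each difference against the spread between these mice. In edgeR that spread was drawn in part from other genes (median prior degrees of freedom 5.41). Some genes are not reported here.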

Additional observations from a re-analysis of the deposited data

How the results depend on the processing

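The count of genes past the threshold between KO and WT was 48, and 232 in DESeq2, 272 with GC and length offsets, 199 without a filter, 76 at a mean of at least 1 CPM, 75 with RLE scaling, 111 in the males alone, 109 at a threshold of 0.10, and 1 to 156 with each library left out. Of the Fc receptor genes 2 passed, 1 in the males alone, 1 without the sex term, and 0 to 2 with each library left out, 0 being reached without WT replicate 2 and without WT replicate 3. Between females and males 6 genes passed, 57 in DESeq2, 41 without a filter, 12 with GC and length offsets and 8 to 69 with each library left out. The cause of these changes was not tested. Over 15 alternatives the log2 fold change of Fcgr2b ran from 1.14 to 1.43 (past the threshold in 9), that of Fcrls from 1.33 to 1.68 (12), that of Fcgr3 from 0.49 to 0.66 (3) and that of Fcer1g from 0.54 to 0.83 (0), all positive. Fcgr1 (-0.15 to 0.11) and Fcgrt (-0.16 to 0.05) took both signs and passed in none. No called value changed sign. Among single genes and lists, 971 recomputed values held, 47 moved beyond the replicate spread or, for counts, changed, and 14 newly passed the threshold. Counts limit Fcgr4 most, at 4 to 12 per library. No paired analysis was possible because replicate numbers only follow the order of deposit, and the unexplained title code leaves no mouse to estimate the spread once sex and genotype are in the model.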
